A study of Mus musculus with 6 samples.

Results

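This account covers 10 genes of NAD metabolism in primary Schwann cells (SCs): *Nampt*, *Naprt*, *Nmrk1*, *Nadsyn1*, *Nmnat1*, *Nmnat2*, *Nmnat3*, *Nadk*, *Nnt* and *Sarm1*, out of 55401 genes in the count table. They were found by Ensembl identifier, and the set was chosen by its pathway and because the counts of *Nmnat3* fell in knockout cultures, so the genotype difference of *Nmnat3* is given below as a description without a test. All 10 were detected and tested. The fit over all genes called 8 of 22318 tested genes (0.0358%), and of the 10 only *Nmnat3*, whose fall chose the set. Its level lay between 2.90 and 3.92 CPM in WT cultures and between 0.865 and 1.30 CPM in *Plxnb1*-/- cultures. The other 9 genes had log2 fold changes between -0.27 and 0.11, and none of them passed the test.

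The study compared SC cultures from mice that lack Plexin-B1, a receptor for semaphorins, with WT cultures to learn what the receptor does in these cells. Bulk RNA-seq was made from 3 WT and 3 *Plxnb1*-/- cultures of dorsal root ganglia of adult mice, all grown with forskolin, neuregulin and serum and depleted of fibroblasts with an antibody to Thy1. The mutant allele is a gene trap cassette inserted into *Plxnb1* in every cell of the animal, and the mice were kept on a C57BL/6 background whose substrain is not given in the sources used here. The methods allow heterozygous littermates as controls in the study at large, and the labels of these libraries say WT. The labels do not say whether cultures of a genotype came from separate animals, so the p-values measure the spread between these cultures, which may in part be technical.

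Nicotinamide adenine dinucleotide (NAD) carries electrons in metabolism and is also used up by enzymes that cut it. Cells make it from nicotinamide, nicotinic acid, nicotinamide riboside or tryptophan, and all these routes pass through the NMNAT enzymes, which join a mononucleotide to the adenylyl group of ATP. NMNAT1 is known as the nuclear enzyme, NMNAT2 as the short-lived enzyme of Golgi and axon, and NMNAT3 as the mitochondrial enzyme. SARM1 cleaves NAD and drives the breakdown of injured axons, and NMNAT2 holds it in check in neurons by consuming its activator, nicotinamide mononucleotide.

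Total counts ranged from 59252048 to 77280964 per library, and a level of 3 counts corresponded to between 0.0383 and 0.0513 CPM, the count scaled by library size and TMM factor. These floors cover counting error only. *Plxnb1* itself stood between 45.4 and 96.4 CPM in WT cultures and between 13.1 and 18.6 CPM in *Plxnb1*-/- cultures, and exons before the cassette can still be counted in the mutant. The 9 SC markers summed for this purpose, *Sox10* among them, were all tested, and their summed level was 2221 to 2627 CPM in WT cultures and 2688 to 2991 CPM in *Plxnb1*-/- cultures. Genes used as markers of other cells were counted too. The paper stained its SC cultures for SC markers to check purity, and it names *Col1a1* among matrix genes reduced in *Plxnb1*-/- SCs. The 6 fibroblast markers, collagens included, summed to between 11188 and 14332 CPM in WT cultures and between 10165 and 10636 CPM in *Plxnb1*-/- cultures. Most of this sum was *Col1a1* (mean 6220 CPM in WT, 5058 CPM in *Plxnb1*-/-) and *Col3a1* (mean 5299 CPM in WT, 4509 CPM in *Plxnb1*-/-). Values of *Dcn* and *Lum* overlapped between genotypes, and those of the other 4 were lower in *Plxnb1*-/- cultures without overlap. Over all tested genes, 10.4% were lower without overlap. None of the 6 was called by edgeR, and DESeq2 called *Col1a1* alone. The 12 neuron markers summed to between 158 and 172 CPM in WT cultures and between 174 and 203 CPM in *Plxnb1*-/- cultures, of which *Tubb3* alone made up between 127 and 153 CPM. The 8 macrophage and leukocyte markers summed to between 44.7 and 50.6 CPM in WT cultures and between 52.3 and 61.7 CPM in *Plxnb1*-/- cultures, and the 6 endothelial and mural markers to between 1079 and 1378 CPM and between 1051 and 1107 CPM. None of these markers stood at 0 in every library. The sums of the first 4 lists did not overlap between genotypes, and their part in the differences below was not tested. In bulk RNA, fewer cells of a type and less RNA per cell cannot be told apart.

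The NMNAT genes differ in the sequence before their start sites, shown here because *Nmnat3* chose the set. Whether these sequences bear on the level of any gene was not tested. RefSeq windows on GRCm38.p6 were found for 8 of the 10 genes, and the 250 bases before the start are printed for the NMNAT family with matches to GGGCGG or its reverse complement CCGCCC (the GC box bound by Sp1-type factors) in capitals. They lie at chr9:98296320-98296569 on the plus strand for *Nmnat3*, at chr4:149485211-149485460 on the minus strand for *Nmnat1*, and at chr1:152954851-152955100 on the plus strand for *Nmnat2*.
Nmnat3: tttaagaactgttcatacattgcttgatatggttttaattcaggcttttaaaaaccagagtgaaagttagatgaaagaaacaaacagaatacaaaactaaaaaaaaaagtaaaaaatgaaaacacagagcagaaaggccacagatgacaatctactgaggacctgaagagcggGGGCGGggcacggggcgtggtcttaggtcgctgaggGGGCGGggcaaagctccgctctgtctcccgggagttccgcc
Nmnat1: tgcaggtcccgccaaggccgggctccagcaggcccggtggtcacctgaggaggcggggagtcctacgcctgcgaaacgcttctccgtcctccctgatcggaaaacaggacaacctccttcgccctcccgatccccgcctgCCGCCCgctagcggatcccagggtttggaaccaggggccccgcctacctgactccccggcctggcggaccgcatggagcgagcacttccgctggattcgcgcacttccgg
Nmnat2: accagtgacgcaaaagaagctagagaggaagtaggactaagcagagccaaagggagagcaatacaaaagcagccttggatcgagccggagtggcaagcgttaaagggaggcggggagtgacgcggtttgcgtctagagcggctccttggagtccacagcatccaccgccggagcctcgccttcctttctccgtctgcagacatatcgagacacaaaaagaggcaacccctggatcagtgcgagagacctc
The *Nmnat3* window held 2 GC boxes, the printed *Nmnat1* window 1 and the *Nmnat2* window 0. A further *Nmnat1* window, not printed, also held 1. Among the other members with windows, *Nampt* held 5, *Nadsyn1* 2, *Sarm1* 1 and *Nmrk1* 0, and the windows of *Nadk* held 0 and 1. Of all 32817 such windows, 32.7% held at least 1 and 16.7% held at least 2. The first 150 bases of the *Nmnat3* window were 29.3% G or C with 0 CpG, and its last 100 bases were 70.0% G or C with 9 CpG. The whole windows of *Nmnat1* and *Nmnat2* were 69.2% and 56.4% G or C, against a median of 52.4% over all windows. GENCODE also lists *Nmnat3* transcripts that start further upstream, and the counts sum over all of its exons.

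*Nmnat3* (ENSMUSG00000032456) lies on chromosome 9 of GRCm38 from 98287435 to 98420438, and no exon of another gene overlaps its exons in the annotation used. Its counts were 251, 170 and 264 in WT replicates 1, 2 and 3 and 102, 86 and 60 in *Plxnb1*-/- replicates 1, 2 and 3. As levels these were 3.92, 2.90 and 3.73 CPM in WT cultures and 1.30, 1.19 and 0.865 CPM in *Plxnb1*-/- cultures. Every *Plxnb1*-/- culture was therefore below every WT culture, and the lowest WT culture stood above the highest *Plxnb1*-/- culture by more than the SD of either genotype, 0.540 CPM in WT and 0.227 CPM in *Plxnb1*-/-. The mean changed by -68.2%, and the fit with edgeR gave a log2 fold change of -1.65 with a standard error of 0.18, so the fitted level was 3.14-fold higher in WT. This gene was 1 of the 8 that edgeR's quasi-likelihood test called, 7 of them lower in *Plxnb1*-/- cultures, which is 0.0358% of 22318 tested genes for either direction and 0.0314% for lower. Since the gene was chosen by this difference, nothing further is read from its call. The call was lost without WT replicate 1, WT replicate 3 or any 1 of the *Plxnb1*-/- replicates, where the log2 fold change lay between -1.78 and -1.50.

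**Figure D1:**
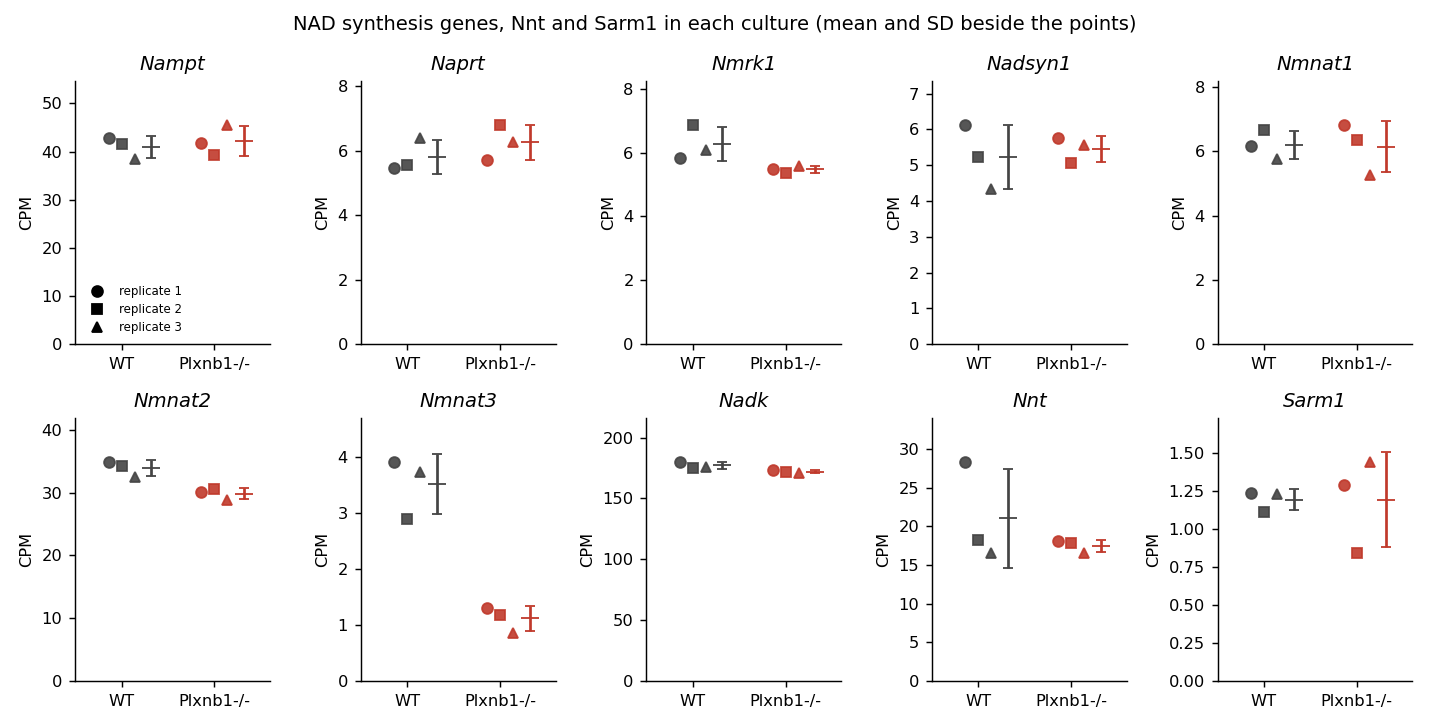
Level in CPM (linear axes from 0) of each of the 10 genes in 3 WT and 3 *Plxnb1*-/- cultures, with 1 symbol per replicate number and the mean and SD beside the points. *Nmnat3* spans 2.90 to 3.92 CPM in WT cultures, against 0.865 to 1.30 CPM in *Plxnb1*-/- cultures, and WT replicate 1 stands apart for *Nnt* at 28.4 CPM.

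The other NMNAT genes were not called. *Nmnat2* (ENSMUSG00000042751, chromosome 1, 152954993 to 153119261) had 34.9, 34.3 and 32.6 CPM in WT cultures 1, 2 and 3, against 30.1, 30.6 and 28.8 CPM in *Plxnb1*-/- cultures 1, 2 and 3. The genotypes did not overlap, and the mean changed by -12.0% from WT to *Plxnb1*-/- cultures. On the log2 scale the difference was -0.18, with a standard error of 0.05, and it did not pass over all tested genes (edgeR adjusted p = 0.273). The spread between cultures was small beside the level, with SDs of 1.23 CPM in WT and 0.915 CPM in *Plxnb1*-/- cultures. *Nmnat2* is best known from neurons, whose 12 markers summed to the levels given above, all with fitted log2 fold changes above 0, none of them called and 1 with an unadjusted p below 0.05 in edgeR. Their part in the level or the difference of *Nmnat2* was not tested.

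*Nmnat1* (ENSMUSG00000028992, chromosome 4, 149467572 to 149485202) measured 6.17, 6.66 and 5.78 CPM in WT cultures and 6.82, 6.35 and 5.27 CPM in *Plxnb1*-/- cultures. The genotypes overlapped, and *Plxnb1*-/- replicate 1 was the highest and *Plxnb1*-/- replicate 3 the lowest of all cultures. The log2 fold change was -0.01 with a 95% interval from -0.26 to 0.24 (edgeR adjusted p = 0.976).

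Set side by side per kilobase of exon, the NMNAT transcripts summed to 8.86, 8.70 and 8.28 CPM per kilobase in WT cultures 1, 2 and 3, against 7.72, 7.62 and 6.89 CPM per kilobase in *Plxnb1*-/- cultures 1, 2 and 3. *Nmnat2* was the largest part in every culture, between 67.5% and 72.3% of the sum. *Nmnat3* was the smallest part, at 8.17% ± 1.30 in WT and 3.00% ± 0.444 in *Plxnb1*-/- cultures (SD, n = 3). *Nmnat1* made up 23.7% ± 1.31 in WT and 27.2% ± 1.99 in *Plxnb1*-/- cultures (SD, n = 3). The ratio of *Nmnat1* to *Nmnat3* per kilobase was 2.98 ± 0.697 in WT and 9.15 ± 0.759 in *Plxnb1*-/- cultures, and its ranges did not overlap. These shares contain the difference that chose *Nmnat3* and are therefore given without a test. They also rest on the summed length of all annotated exons of a gene, which no single transcript need contain.

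**Figure D2:**
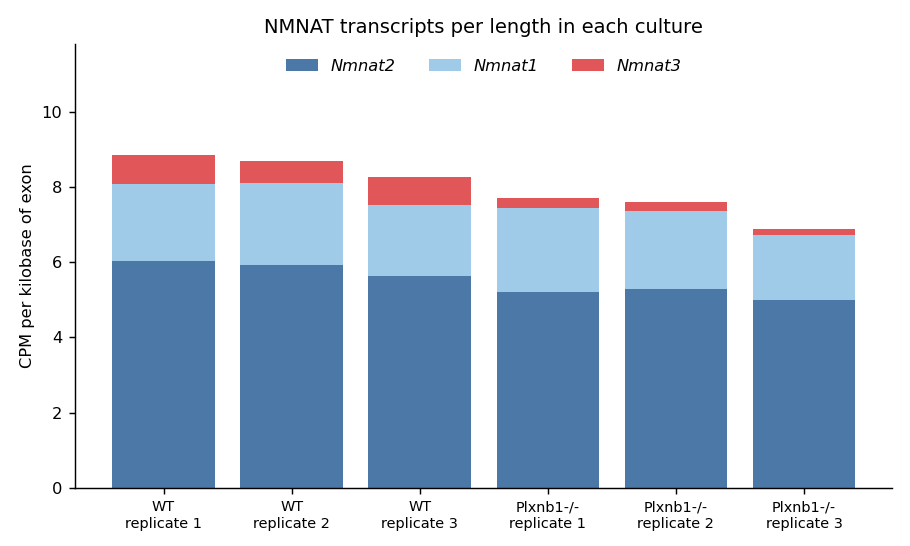
Stacked levels of *Nmnat2*, *Nmnat1* and *Nmnat3* in CPM per kilobase of exon (linear axis from 0), with 1 bar for each culture. *Nmnat2* makes up 67.5% to 72.3% of each bar, and the *Nmnat3* part averages 8.17% in WT and 3.00% in *Plxnb1*-/- cultures.

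The enzymes that take up NAD precursors did not pass the test. *Nampt* (chromosome 12, 32819545 to 32853349) encodes the rate-limiting enzyme of salvage from nicotinamide and measured 42.9, 41.6 and 38.4 CPM in WT cultures and 41.8, 39.3 and 45.6 CPM in *Plxnb1*-/- cultures. The genotypes overlapped, with *Plxnb1*-/- replicate 3 the highest and WT replicate 3 the lowest of all. Its log2 fold change was 0.04 with a 95% interval from -0.10 to 0.19 (edgeR adjusted p = 0.812). *Nmrk1* (chromosome 19, 18631950 to 18652428) encodes a kinase of nicotinamide riboside and measured 5.84, 6.87 and 6.07 CPM in WT cultures and 5.50, 5.37 and 5.58 CPM in *Plxnb1*-/- cultures. Each *Plxnb1*-/- culture was below each WT culture, by a log2 fold change of -0.19 with a 95% interval from -0.39 to 0.01 (edgeR adjusted p = 0.384).

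*Naprt* (chromosome 15, 75890956 to 75894481), whose enzyme starts the route from nicotinic acid, measured 5.47, 5.55 and 6.40 CPM in WT cultures and 5.70, 6.80 and 6.27 CPM in *Plxnb1*-/- cultures. The genotypes overlapped, and the log2 fold change was 0.11 with a 95% interval from -0.12 to 0.34 (edgeR adjusted p = 0.680). Its exons share 277 bases, 11.8% of their length, with exons of *Eef1d* on the same strand, a translation factor gene at 155 to 179 CPM. Reads on these bases cannot be assigned to either gene alone. *Nadsyn1* (chromosome 7, 143795584 to 143822849) encodes the synthetase that ends this route, and it measured 6.13, 5.23 and 4.34 CPM in WT cultures and 5.75, 5.05 and 5.55 CPM in *Plxnb1*-/- cultures. The WT cultures spanned the whole range, and the log2 fold change was 0.06 with a 95% interval from -0.23 to 0.35 (edgeR adjusted p = 0.872).

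Among the genes that act on NAD once it is made, *Nadk* (chromosome 4, 155562378 to 155591001), the cytosolic NAD kinase that yields NADP, had the smallest spread relative to its level of the 10. Its levels were 180, 175 and 176 CPM in WT cultures and 173, 172 and 171 CPM in *Plxnb1*-/- cultures. The genotypes did not overlap, but the mean changed by only -2.93%, and the log2 fold change of -0.04 had a 95% interval from -0.13 to 0.04 (edgeR adjusted p = 0.644). *Nnt* (chromosome 13, 119335448 to 119408997) encodes the mitochondrial transhydrogenase that uses NADH to make NADPH, and the C57BL/6J substrain is known to carry a deletion within it. Its levels were 28.4, 18.2 and 16.5 CPM in WT cultures 1, 2 and 3, against 18.0, 17.8 and 16.5 CPM in *Plxnb1*-/- cultures 1, 2 and 3. WT replicate 1 stood alone, while the other 5 cultures lay within 16.5 to 18.2 CPM. The log2 fold change of -0.27 (95% interval -0.66 to 0.12, edgeR adjusted p = 0.524) rested on that culture and was 0.01 without it. The table holds *Nnt* under 2 Ensembl identifiers, ENSMUSG00000025453 and ENSMUSG00000116207. All exons of the latter lie within exons of the former, and the latter's counts were 97.6% to 99.0% of the former's in each library. Reads there were thus counted for both rows, which are not independent, and the values given are those of the former.

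*Sarm1* (ENSMUSG00000050132, chromosome 11, 78472330 to 78497754) was low but above the floor of the depth in every culture. Its counts were 79, 65 and 87 in WT cultures and 101, 61 and 100 in *Plxnb1*-/- cultures, or 1.23, 1.11 and 1.23 CPM and 1.29, 0.842 and 1.44 CPM. The genotypes overlapped, and *Plxnb1*-/- replicate 2 was the lowest and *Plxnb1*-/- replicate 3 the highest of all. The log2 fold change was -0.00 with a 95% interval from -0.47 to 0.47 (edgeR adjusted p = 0.998), the widest interval of the 10 genes. The level of *Nmnat2* per kilobase exceeded that of *Sarm1* by 27.8-fold ± 2.13 in WT cultures and by 25.9-fold ± 8.42 in *Plxnb1*-/- cultures (SD, n = 3). The log2 ratio differed by -0.15 between genotypes, less than the spread between *Plxnb1*-/- cultures (exact two-sided permutation test, p = 0.6, where the smallest p that 3 against 3 allows is 0.1).

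**Figure D3:**
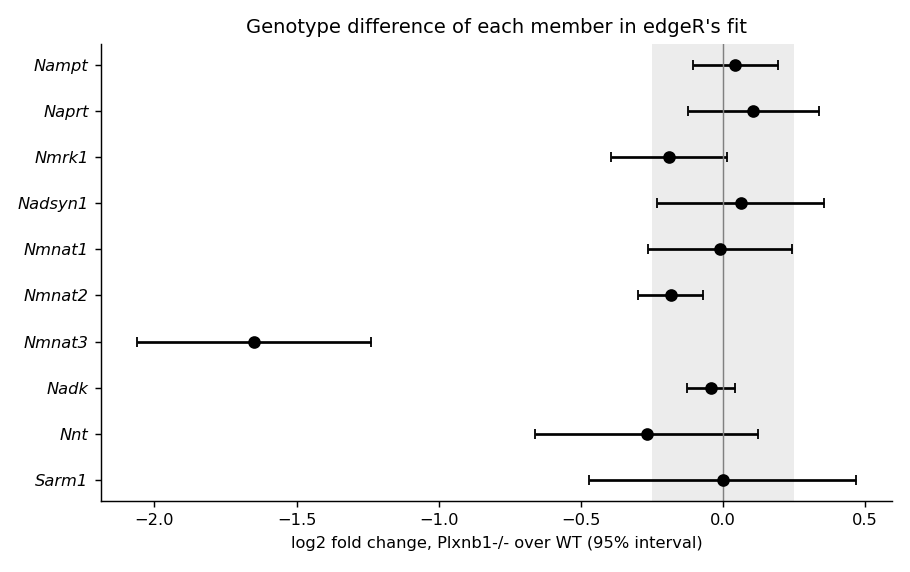
Log2 fold change of each gene, *Plxnb1*-/- over WT, in edgeR's fit over all genes, with points as estimates, bars as 95% intervals and the grey band as the fold change that could not be called (0.25 in either direction). *Nmnat3* lies at -1.65 outside the band, and the other 9 genes lie between -0.27 and 0.11. Of these, *Nnt* at -0.27 also lies just outside the band and was not called.

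Apart from *Nmnat3*, which was chosen by its difference, 3 of 9 genes had every *Plxnb1*-/- culture below every WT culture, *Nmnat2*, *Nmrk1* and *Nadk*, and in 0 of 9 every one lay above. Over all tested genes, 19.7% did not overlap in either direction and 10.4% were lower without overlap. Of the same 9 genes, 6 had a log2 fold change below 0, against 48.5% of all tested genes, and their median was -0.01, against 0.005 over all tested genes. At an unadjusted p below 0.05, 1 of these 9 passed in edgeR, *Nmnat2*, while 13.7% of all tested genes did. DESeq2 called *Nmnat3* alone of the 10, and 1.50% of all tested genes. The adjusted p of the 9 other genes lay between 0.273 and 0.998 with edgeR and between 0.106 and 0.999 with DESeq2.

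Levels were compared between genes per kilobase of annotated exon. The aligner used does not span introns, so reads across exon junctions may be missing to a degree that differs between genes. The level of *Naprt* may include reads of *Eef1d* on the bases they share. In WT cultures *Nadk* led at 47.3 CPM per kilobase, followed by *Nampt* at 8.10, *Nmnat2* at 5.87, *Nnt* at 2.99, *Naprt* at 2.48, *Nmnat1* at 2.04, *Nmrk1* at 1.70, *Nadsyn1* at 1.58, *Nmnat3* at 0.703 and *Sarm1* at 0.212 CPM per kilobase. Neighbours in this order were apart in their ranges over the WT cultures except for *Nnt* and *Naprt* and for *Nmrk1* and *Nadsyn1*. In *Plxnb1*-/- cultures *Nadk*, *Nampt* and *Nmnat2* led again, at 45.9, 8.35 and 5.16 CPM per kilobase. *Nmnat3*, at 0.224 CPM per kilobase, overlapped there with *Sarm1* at 0.212 CPM per kilobase, which it did not in WT cultures.

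*Nmnat3* lies on the chromosome of *Plxnb1*, 10.8 Mb from it by gene starts, and its neighbours were looked at for this reason. The start of a gene is here its lower coordinate, whatever its strand, and need not be where transcription begins. Of 15 other protein-coding genes analysed here that start within 1 Mb of it, 6 were tested, and neither edgeR nor DESeq2 called any of them. By unadjusted p below 0.05 in edgeR, 1 of the 6 passed, *Clstn2*, where 13.7% of all tested genes did, so nothing is read from this count. *Clstn2*, which encodes a calsyntenin of synapses, runs from 97444395 to 98033181 on the minus strand. Its lower coordinate lies at -843 kb from that of *Nmnat3*, and its transcription begins at the other, nearer end. It measured 1.64, 1.78 and 2.26 CPM in WT cultures and 1.48, 1.15 and 0.995 CPM in *Plxnb1*-/- cultures. Its genotypes did not overlap, and the difference was -0.65 on the log2 scale, with a standard error of 0.19 (edgeR adjusted p = 0.284). The remaining neighbours, *Copb2*, *Mrps22*, *Faim*, *Pik3cb* and *Cep70*, had log2 fold changes between -0.11 and 0.05 with adjusted p from edgeR of 0.453 or more. Values did not overlap for 2 of the 6, *Clstn2* and *Copb2*, both lower in *Plxnb1*-/- cultures, where 19.7% of all tested genes did not overlap. Of the 6, 5 had a log2 fold change below 0, against 48.5% of all tested genes. These counts carry no test. A difference carried by alleles linked to the *Plxnb1* mutation and an effect of losing the receptor cannot be told apart in this design.

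**Figure D4:**
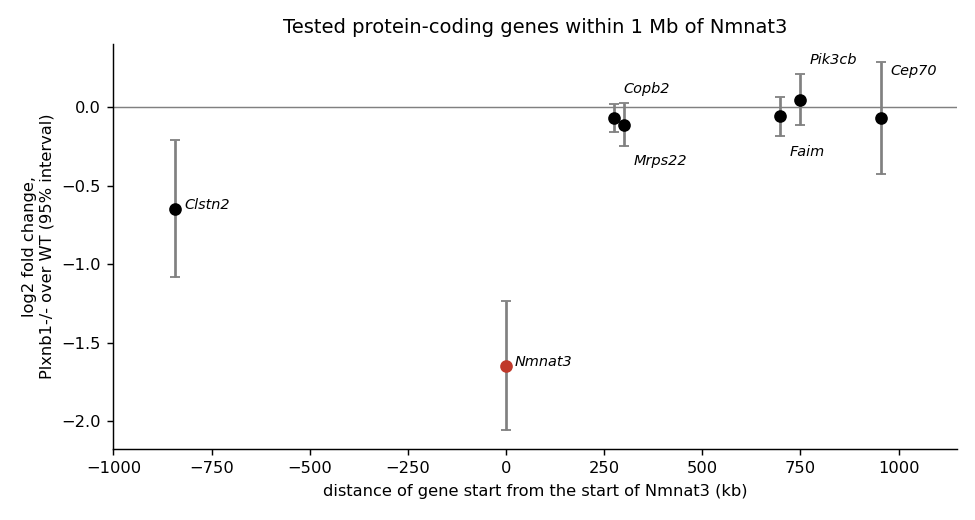
Log2 fold change, *Plxnb1*-/- over WT, of *Nmnat3* (red) and the 6 other tested protein-coding genes analysed here that start within 1 Mb of it, against the distance of their starts in kb, with 95% intervals as bars. Starts are lower coordinates, whatever the strand. *Nmnat3* at -1.65 is the lowest, *Clstn2* is at -0.65, and the others lie between -0.11 and 0.05.

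The genes whose course over the 6 cultures came closest to that of *Nmnat3* were ranked by the root mean square difference of log2 CPM, centered per gene, among 14991 genes with a mean of at least 1 CPM. The nearest was *Mapkapk3*, a stress kinase gene, at 0.297 log2 units, followed by *Slc35g2* (0.354), *Eln* (0.364), *Ccrl2* (0.379) and Gm30003 (0.387). *Mapkapk3*, *Slc35g2* and *Ccrl2* lie on chromosome 9, at 1.84, 8.54 and 1.96 Mb from *Plxnb1*, and *Eln* and Gm30003 lie on chromosome 5. There *Eln* and Gm30003 lie close together, with lower coordinates at 134702593 and 134747042, so they need not be separate entries. *Mapkapk3* measured 19.0, 10.7 and 17.6 CPM in WT cultures and 6.65, 6.44 and 6.52 CPM in *Plxnb1*-/- cultures, with WT replicate 2 the lowest WT culture, as for *Nmnat3*. This ranking rests largely on the genotype difference that chose *Nmnat3*, and no other member of the set was among these 5.

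The wider NAD network was described with 83 further genes in 9 lists, of which 76 were tested. None was called by edgeR's quasi-likelihood test, where the lowest adjusted p was 0.168. DESeq2 called 4 of the 76, against 1.50% of all tested genes. At an unadjusted p below 0.05 in edgeR, 20 of the 76 passed (26.3%, against 13.7% of all tested genes). The values of 26 did not overlap (34.2%, against 19.7% of all tested genes), 15 higher and 11 lower in *Plxnb1*-/- cultures. Their median log2 fold change was 0.03, against 0.005 over all tested genes, with 49 above 0 and 27 below, where 48.5% of all tested genes were below. The lists were chosen with earlier results known, and these shares carry no test.

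Transcripts for synthesis from tryptophan were low in these cultures. Of its 9 genes, 6 were tested, and *Afmid*, a formamidase gene, was the only one with a mean of at least 1 CPM, with 3.85 ± 0.286 CPM in WT cultures, against 4.04 ± 0.424 CPM in *Plxnb1*-/- cultures (SD, n = 3). *Qprt*, which encodes the enzyme that hands quinolinic acid on to the NMNAT step, had 0.850 ± 0.265 CPM in WT cultures, against 0.815 ± 0.0874 CPM in *Plxnb1*-/- cultures. Of 11 genes for other salvage and transport steps, 9 were tested. The mitochondrial NAD carrier gene *Slc25a51* had the largest value upward, 0.10 on the log2 scale (edgeR adjusted p = 0.370), and *Nt5e*, which encodes the ectonucleotidase CD73, the largest downward, -0.41 (edgeR adjusted p = 0.364). *Nmrk2*, a muscle paralog of *Nmrk1*, was between 0 and 0.0256 CPM in every culture, under the floor of the depth, and was not tested.

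Among the genes whose enzymes use NAD, the PARP list held the lowest p. *Parp3*, a DNA repair ADP-ribosyltransferase gene, measured 87.7, 73.5 and 92.8 CPM in WT cultures and 56.9, 60.4 and 63.1 CPM in *Plxnb1*-/- cultures. The genotypes did not overlap. On the log2 scale it differed by -0.49, with a standard error of 0.08 and an adjusted p of 0.168 from edgeR and 2.62e-05 from DESeq2. *Parp3* also lies on chromosome 9, 2.63 Mb from *Plxnb1*. At the other end, *Parp14*, an interferon-responsive family member, lay at 0.34 on the log2 scale (edgeR adjusted p = 0.291), and 11 of the 15 PARP genes were above 0. The 7 sirtuin genes, NAD-dependent deacylases, ranged from *Sirt5* at -0.12 to *Sirt2* at 0.14 on the log2 scale (edgeR adjusted p = 0.615 and 0.315).

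Genes of enzyme families that act on NAD or nucleotides outside the cell, not every member of which need cut NAD, had values on both sides of 0. *Enpp1*, an ectonucleotide pyrophosphatase gene, measured 193, 227 and 180 CPM in WT cultures and 153, 172 and 141 CPM in *Plxnb1*-/- cultures. This log2 difference of -0.37 had an adjusted p of 0.273 from edgeR and 0.0162 from DESeq2. *Art3*, an ADP-ribosyltransferase family gene, measured 17.3, 13.6 and 16.2 CPM in WT cultures and 18.6, 21.7 and 25.0 CPM in *Plxnb1*-/- cultures. Its log2 fold change of 0.47 had an adjusted p of 0.273 from edgeR and 0.0124 from DESeq2. Neither gene's values overlapped between genotypes. *Cd38*, a main NAD glycohydrolase, had 5.61 ± 1.34 CPM in WT cultures, against 5.78 ± 0.707 CPM in *Plxnb1*-/- cultures (SD, n = 3, edgeR adjusted p = 0.930). *Nnmt*, which methylates nicotinamide, lay at -0.37 on the log2 scale (edgeR adjusted p = 0.293), and *Aox1*, which oxidizes its product, 0.44 (edgeR adjusted p = 0.284).

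In the list of 13 genes around NADPH production, *Mthfd2*, a mitochondrial folate enzyme gene, measured 123, 152 and 126 CPM in WT cultures and 111, 106 and 101 CPM in *Plxnb1*-/- cultures. On the log2 scale it differed by -0.33, with an adjusted p of 0.266 from edgeR and 0.0142 from DESeq2. *Mthfd1l* of the same pathway was at 0.18 (edgeR adjusted p = 0.306), and the pentose phosphate genes *G6pdx* and *Pgd* were both at 0.01 on the log2 scale. Among 4 hydrolases of NAD and NADPH, *Nudt13* was at 0.28 and the clock-linked *Noct* at -0.26 (edgeR adjusted p = 0.273 and 0.285).

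The 14 genes that act with *Sarm1* and *Nmnat2* in axon loss, such as *Mycbp2*, whose ubiquitin ligase turns over NMNAT2, and the kinase gene *Map3k12*, were all tested, and 1 of the 14, *Stmn2*, passed at an unadjusted p below 0.05 in edgeR, where 13.7% of all tested genes did. *Mycbp2* had 118 ± 5.55 CPM in WT cultures, against 125 ± 5.43 CPM in *Plxnb1*-/- cultures (SD, n = 3), and *Map3k12* had 62.2 ± 1.09 CPM, against 62.0 ± 2.20 CPM. *Mapk10* and *Capn1* had the largest values upward and downward, 0.43 and -0.11 on the log2 scale (edgeR adjusted p = 0.375 and 0.379). *Stmn2*, a growth cone gene of neurons, lay at 0.36 on the log2 scale (edgeR adjusted p = 0.353), in the direction of the neuron markers given above, whose part in it was not tested.

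**Figure D5:**
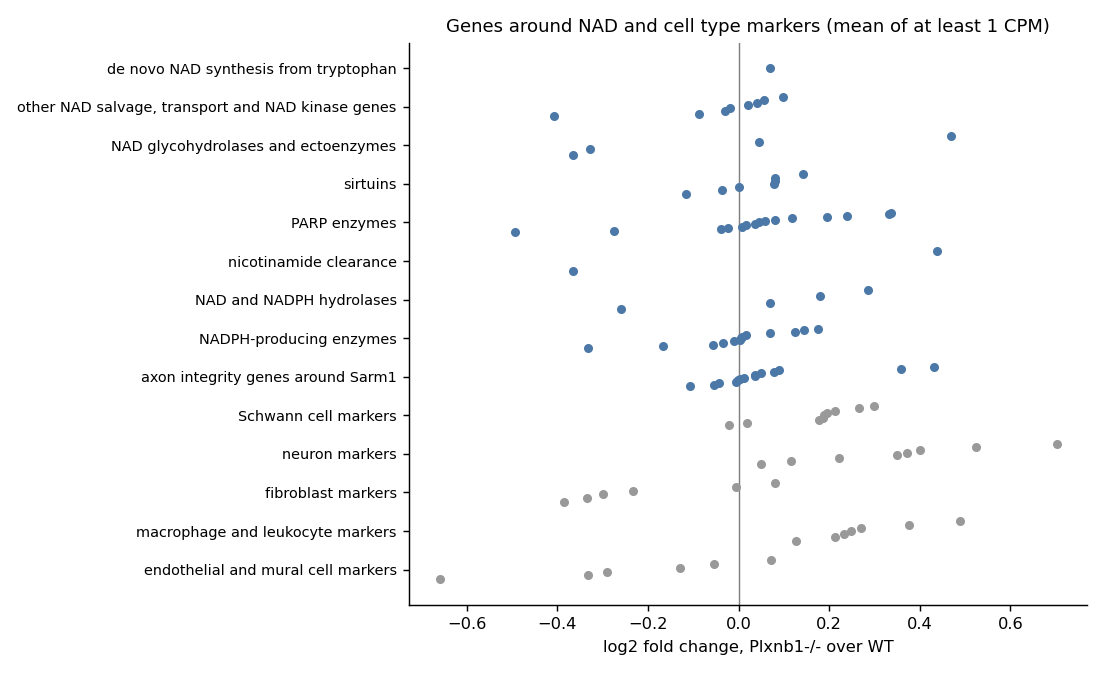
Log2 fold change, *Plxnb1*-/- over WT, of tested genes with a mean of at least 1 CPM in the 9 lists around NAD (blue) and in the 5 lists of cell type markers (grey), with 1 point per gene. Genes of the blue lists fall on either side of 0 with *Parp3* lowest at -0.49, and the tryptophan list shows *Afmid* alone, above 0. The 8 neuron markers shown all lie above 0, and no gene of the blue lists was called by edgeR.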

How the data were processed

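Bulk poly(A) RNA-seq libraries of 3 WT and 3 *Plxnb1*-/- SC cultures were grouped by the genotype in their labels. Per the labels and the paper's methods, the authors trimmed reads with Trim Galore 0.6.5, aligned them to mm10 with Bowtie2 2.4.1, which does not span introns, removed duplicates with SAMtools 1.10 and made the deposited raw counts on exons with FeatureCounts and GENCODE vM25. The strand setting is not given in the sources used here. The deposited FPKM values are the authors' own and were used only as an alternative. Removing duplicates without molecular identifiers can lower high counts.

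Symbols, positions and exon lengths came from GENCODE vM21 on GRCm38, an older release of the same build, in which 55141 of 55401 identifiers were found. The 22318 genes that reached 2 counts in 5 or more of the 6 libraries were tested with edgeR 4.0.16 (TMM, quasi-likelihood test, genotype only) under R 4.3.3, with Benjamini-Hochberg adjustment over all of them. Calls required an adjusted p below 0.05 together with a log2 fold change beyond 0.25 in either direction. Standard errors were derived from edgeR's F statistics, and 95% intervals from its degrees of freedom. Levels per kilobase are CPM over the summed exon length. The fit was tested on simulated counts. Alternatives were DESeq2 1.42.0, limma 3.58.1 (voom, and log2(FPKM + 0.1)), other scalings and filters, a replicate block and each library left out, and edgeR's newer estimate was added after seeing the data.

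The members and lists were chosen with earlier results of these data known. Named genes are the members, *Plxnb1*, the genes with the largest rise and fall in each list among those with a mean of at least 1 CPM, tested neighbours within 1 Mb of *Nmnat3*, the 5 genes most like it, and cell type markers. *Eef1d*, *Qprt*, *Nmrk2*, *Cd38*, *G6pdx*, *Pgd*, *Mycbp2*, *Map3k12* and *Stmn2* were named after their values had been seen. A neighbour of *Nmnat3* and an SC marker are not reported here and were left out of the counts and sums given for those groups.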

Additional observations from a re-analysis of the deposited data

How the results depend on the processing

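The number of genes called over all tested genes was 8 and went to 335 with DESeq2, 296 with no filter on low counts, 3 with limma on log2 FPKM and 5 with the replicate block, and to between 4 and 25 with 1 library left out, the 25 without WT replicate 2 and the 4 without *Plxnb1*-/- replicate 2 or 3. The number of members called was 1 (*Nmnat3*) and went to 0 with limma on log2 FPKM and to 0 with the replicate block. With 1 library left out it was between 0 and 1, and it stayed at 1 without WT replicate 2. The log2 fold change of *Nmnat3* stayed between -1.78 and -1.50 with 1 library left out and was -1.65 with the block. It was -0.22 on log2(FPKM + 0.1), where its FPKM values, which run from 0.00650 to 0.0295, lie under the pseudocount. Per kilobase of exon its level ran from 0.173 to 0.784 CPM, so the deposited FPKM appears to divide by a length greater than the exons. The value and the lost call in that setting therefore say little about *Nmnat3*.

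Signs changed for values near 0. *Sarm1* was at 0.00023 with no filter and at 0.00062 on log2 FPKM, and with 1 library left out it lay between -0.16 and 0.19, *Nmnat1* between -0.10 and 0.088, *Nadsyn1* between -0.059 and 0.19, *Nampt* between -0.015 and 0.093 and *Nnt* between -0.42 and 0.0093 (the last without WT replicate 1). The log2 ratio of *Nmnat2* to *Sarm1* differed by between -0.40 and 0.032. *Nmnat2*, *Nmrk1*, *Nadk* and *Naprt* kept their sign in all 15 alternatives, and no member other than *Nmnat3* was called in any. Replicate numbers showed no clear pairing of the cultures, which 3 cultures per genotype cannot exclude. The correlations of deviations from the genotype mean, taken across genes, were -0.02, 0.01 and 0.07 for numbers 1, 2 and 3, and only the cultures numbered 3 correlated best with their own number. With 60 to 102 counts per library, *Sarm1* and *Nmnat3* in *Plxnb1*-/- cultures have the least depth.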
